A study of Mus musculus with 31 samples.

Results

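The genes described here carry glucose through the lactating mammary cell to lactose. They are 9 of the 55379 genes counted, taken from a list of glucose uptake, UDP-galactose supply and lactose synthesis by their GRCm39 symbol, with alpha-lactalbumin (*Lalba*) itself left out and used as a reference. All 9 were found once in the annotation and all 9 passed the filter on low counts, which left 14362 genes. Mammary gland tissue came from C57BL/6J dams on lactation day 10, and polyadenylated RNA was sequenced as 1 library per dam. The breeder diet held 4 mg/kg folic acid (FA) and the FA diet 24 mg/kg, each fed from 2 weeks before mating. Injections of saline or of fluoxetine at 20 mg/kg/d, an antidepressant that blocks serotonin reuptake, ran from embryonic day 13 to lactation day 10. By the labels, 8 libraries were breeder diet + saline, 7 breeder diet + fluoxetine, 8 FA diet + saline and 8 FA diet + fluoxetine. All dams were lactating and no group was left uninjected, so neither contrast has a dry or an uninjected gland to compare with.

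Lactose is the main sugar of milk and draws water into it. Glucose enters the secretory cell through facilitative carriers, *Slc2a1* (GLUT1) foremost and *Slc2a8* (GLUT8) among the others, and is phosphorylated by hexokinases such as *Hk1* and *Hk2*. Phosphoglucomutase *Pgm1* and UDP-glucose pyrophosphorylase *Ugp2* turn glucose 6-phosphate into UDP-glucose, the UDP-glucose epimerase and *Galt* of the Leloir pathway yield UDP-galactose, and *Slc35a2* moves it into the Golgi. There the galactosyltransferase *B4galt1*, in complex with *Lalba*, joins galactose to glucose.

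Total counts per library ran from 15412542 to 36000439. The 7 markers of secretory epithelium were detected in every library, with a summed level from 29252 to 502671 CPM (TMM-normalised CPM, the counts scaled to a common library size). The lowest sum belonged to FA diet + fluoxetine replicate 3, which stood apart. Its 20 most abundant genes held 39.3% of its counts, against 60.5% to 81.0% in the other 30 libraries. Its 4 fibroblast markers summed to 886 CPM, where the other libraries of its group lay between 62.6 and 120 CPM and no library of another group passed 282 CPM. Its 5 leukocyte markers, 4 of them past the filter, summed to 100 CPM, against at most 39.0 CPM elsewhere. Its 5 adipocyte markers summed to 870 CPM, against at most 682 CPM elsewhere. Log2 fold changes of the members for fluoxetine are given with and without it. In 6 libraries, 6 skeletal muscle markers summed to over 1500 CPM, and values without those libraries are given for *Pgm1* and for some results of other genes. These libraries were FA diet + saline replicates 4, 10 and 12 and breeder diet + saline replicate 11. The others were breeder diet + fluoxetine replicate 5 and FA diet + fluoxetine replicate 10, so FA diet + saline held the most. Whole glands were sequenced, so fewer cells of a type and less RNA per cell cannot be told apart.

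Levels of the genes were compared with each other per kilobase of annotated exon. *B4galt1* was the highest of the 9, with a median of 63.2 CPM per kb over the 31 libraries, above *Slc2a1* at 12.8 in 31 of 31 libraries. *Slc2a1* in turn was above *Ugp2*, at 6.54, in 30 of 31 libraries, and *Ugp2* above *Slc35a2*, at 4.41, in 29. The pathway's last enzyme and its main glucose carrier led the list. Below them, *Slc35a2* was above *Pgm1*, at 3.32 CPM per kb, in 23 libraries, and *Pgm1* above *Galt* in 27. *Galt* at 2.12, *Hk2* at 2.08 and *Hk1* at 1.78 CPM per kb were not separated, since *Galt* exceeded *Hk2* in 15 of 31 libraries and *Hk2* exceeded *Hk1* in 20. *Slc2a8* was lowest at 1.04 CPM per kb, below *Hk1* in 30 libraries. Per kilobase of coding sequence or of the canonical transcript, *B4galt1* and *Slc2a1* again came first and second of the 9, but the order below them changed, and per canonical transcript *Hk2* and not *Slc2a8* was lowest. *Lalba*, the partner protein, had a median of 4612 CPM per kb, above *B4galt1* in all 31 libraries. The median ratio of the regulatory to the catalytic transcript was 74.7 per exon length, 16.8 per coding length and 23.6 per canonical transcript, so its size depends on the length used.

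Each leading gene made up much of its own family. *B4galt1* took a median of 94.4% of the summed exon-length level of the 7 beta-1,4-galactosyltransferases, with 89.8% to 95.9% in 30 libraries and 68.4% in FA diet + fluoxetine replicate 3. *Slc2a1* took a median of 50.1% of that of 12 hexose carriers, with 41.3% to 65.0% in those 30 libraries and 14.6% in the remaining one. Both shares were lowest in the same library. Of the other carriers and hexokinases, *Slc2a2* and *Hkdc1* had 0 counts in all libraries, and *Slc2a5*, *Slc2a10* and *Slc5a2* had 182, 191 and 15 counts in all and were not tested.

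Promoter sequence is shown for the 3 genes that lay the most fold below the other libraries in the library that stood apart and for *Galt*, whose level ran against theirs. The windows are from RefSeq on GRCm38.p6, an older build than that of the counts, and span 250 bases before to 50 after the annotated start, 5′ to 3′ on the strand of the gene. They are chr4:40853935-40854234 (minus strand) for *B4galt1*, chr4:119108495-119108794 (plus) for *Slc2a1*, chrX:7883994-7884293 (plus) for *Slc35a2* and chr4:41755267-41755566 (plus) for *Galt*. Capitals mark matches to 4 motifs searched on both strands: the GC box GGGCGG, the STAT site TTCNNNGAA, the TATA box TATAAA and the E-box CACGTG.
B4galt1: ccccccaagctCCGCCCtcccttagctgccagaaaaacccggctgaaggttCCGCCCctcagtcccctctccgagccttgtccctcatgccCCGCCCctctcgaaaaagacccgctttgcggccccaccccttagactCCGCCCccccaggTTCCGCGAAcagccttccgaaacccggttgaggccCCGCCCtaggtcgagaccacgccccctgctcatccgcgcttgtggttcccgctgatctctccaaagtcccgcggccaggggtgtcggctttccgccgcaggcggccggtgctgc
Slc2a1: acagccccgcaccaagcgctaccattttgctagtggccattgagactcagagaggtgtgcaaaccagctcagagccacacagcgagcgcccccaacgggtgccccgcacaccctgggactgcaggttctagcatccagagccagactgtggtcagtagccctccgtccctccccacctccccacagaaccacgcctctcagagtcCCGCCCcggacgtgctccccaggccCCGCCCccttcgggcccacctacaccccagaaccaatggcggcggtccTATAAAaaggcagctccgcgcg
Slc35a2: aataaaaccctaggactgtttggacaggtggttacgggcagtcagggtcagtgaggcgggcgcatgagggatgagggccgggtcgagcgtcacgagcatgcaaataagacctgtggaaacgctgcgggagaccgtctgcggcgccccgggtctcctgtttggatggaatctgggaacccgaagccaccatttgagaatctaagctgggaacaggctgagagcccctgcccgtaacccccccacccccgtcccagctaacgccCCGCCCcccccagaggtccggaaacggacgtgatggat
Galt: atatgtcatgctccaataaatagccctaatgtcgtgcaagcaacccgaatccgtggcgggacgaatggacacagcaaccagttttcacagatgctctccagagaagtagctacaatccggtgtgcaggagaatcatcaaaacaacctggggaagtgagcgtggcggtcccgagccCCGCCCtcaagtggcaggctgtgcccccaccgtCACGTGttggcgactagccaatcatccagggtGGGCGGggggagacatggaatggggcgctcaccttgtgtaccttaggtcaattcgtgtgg
All 9 genes matched the RefSeq table, with 12 windows in all. The GC box was in 8 of the 12 windows, from 7 of the 9 genes, and in 35.7% of all 32851 windows of that length. *B4galt1* held 5 of them and the only TTCNNNGAA match among the 12, a motif found in 8.3% of all windows. The TATAAA match of *Slc2a1* began at base 29 of the transcribed part, *Pgm1* held the other, and 13.6% of all windows had one. CACGTG was in the *Galt* window and in 7.15% of all. No match overlapped one of another motif, and each is a match of letters, not a site shown to be bound.

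**Figure D1:**
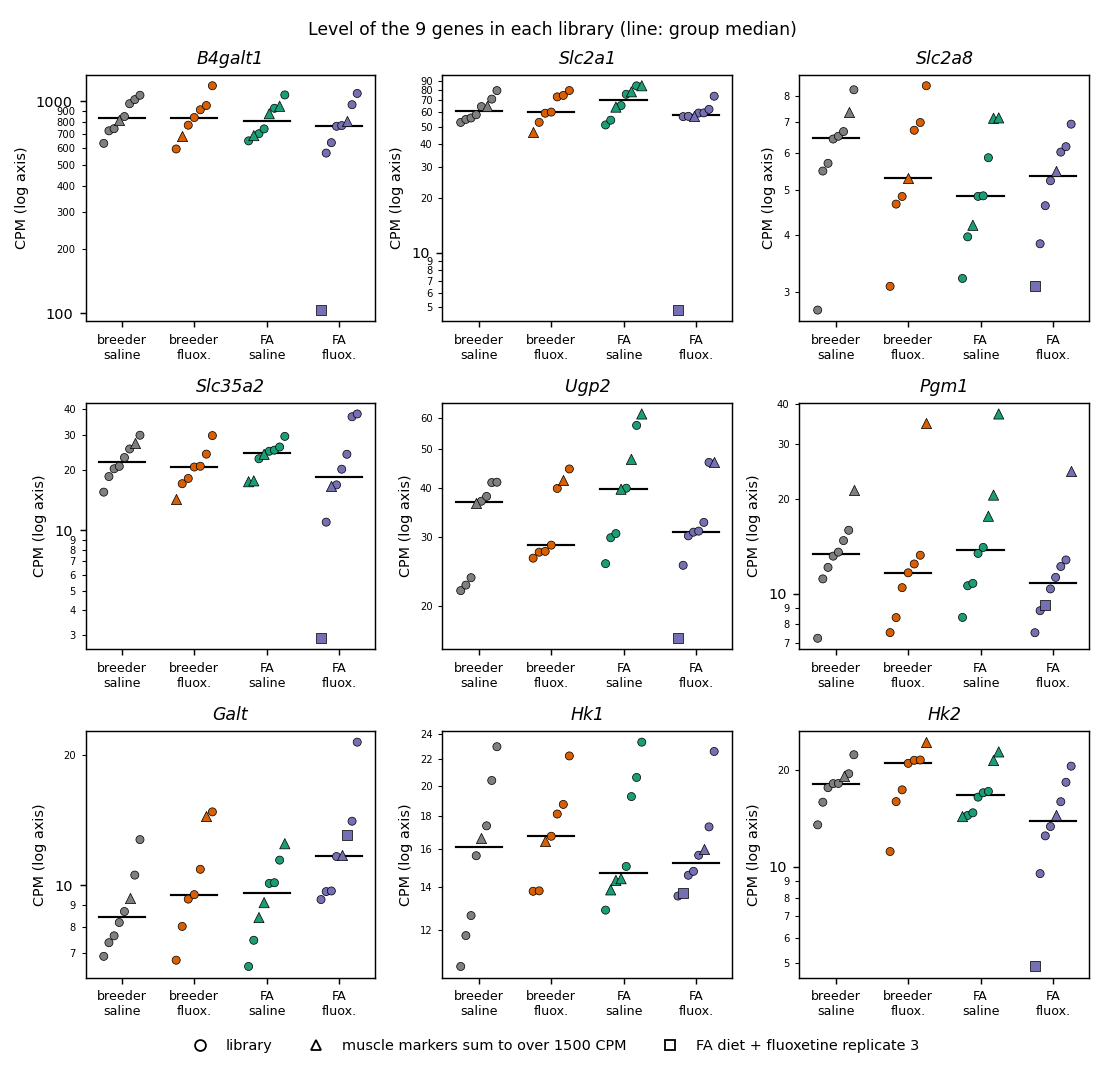
Level of each of the 9 genes in CPM (log axis) by group, 1 point per library, with a line at the group median. Squares mark FA diet + fluoxetine replicate 3, far below the rest for *B4galt1*, *Slc2a1* and *Slc35a2*, and triangles the 6 libraries with muscle markers over 1500 CPM, which hold the 6 highest *Pgm1* levels.

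Fluoxetine-treated and saline-treated dams were compared over both diets, to ask whether the drug changed the transcripts of lactose synthesis at peak lactation. None of the 9 genes passed the FDR of 10% in edgeR's quasi-likelihood test, with p adjusted by the Benjamini-Hochberg method over all genes, under which 0.0209% of all genes tested did (3 of 14362). At an unadjusted p of 0.05 or below, 1 of the 9 differed (*Galt*, higher), and 9.92% of all genes did. Fitted log2 changes were below 0 for 7 of the 9 genes and above 0 for 2, with a median of -0.13 against 0.019 over all genes tested. The 95% intervals of the members reached down to -0.64 (*Pgm1*) and up to 0.58 (*Galt*) on the log2 scale.

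*B4galt1* (ENSMUSG00000028413, GRCm39 chromosome 4 from 40804602 to 40854046) lay at 633, 832 and 1068 CPM (lowest, median, highest) in breeder diet + saline and at 596, 838 and 1184 CPM in breeder diet + fluoxetine. On the FA diet with saline it lay at 651, 807 and 1072 CPM, and in FA diet + fluoxetine at 103, 765 and 1089 CPM. The 4 groups overlapped throughout, and FA diet + fluoxetine replicate 3 aside, the lowest value was 570 CPM. The log2 fold change for fluoxetine was -0.11 (SE, its standard error, 0.175; adjusted p = 0.872) with that library and -0.037 (SE 0.106, adjusted p = 0.945) without it. *Lalba*, which binds the enzyme and makes glucose its acceptor, had medians of 3688, 3058, 4054 and 2989 CPM in the same order of groups. Its log2 fold change was -0.20 (SE 0.183, adjusted p = 0.743), and -0.14 without that library.

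*Slc2a1* (ENSMUSG00000028645, chromosome 4 from 118965908 to 118996365), the carrier that brings glucose across the cell membrane, lay at 52.7, 61.3 and 79.1 CPM in breeder diet + saline and at 46.9, 60.1 and 79.2 CPM in breeder diet + fluoxetine. On the FA diet with saline it reached 51.0, 70.4 and 84.2 CPM, and in FA diet + fluoxetine 4.81, 58.2 and 73.6 CPM. Replicate 3 aside, the last group spanned only 56.8 to 73.6 CPM, inside the range of FA diet + saline. Its log2 fold change was -0.17 (SE 0.182, adjusted p = 0.789), and -0.096 (SE 0.0885, adjusted p = 0.763) without replicate 3 or -0.10 (SE 0.222) without the 6 muscle-rich libraries. *Slc2a8* (ENSMUSG00000026791, chromosome 2 from 32861636 to 32872231), a carrier found mainly inside the cell, ranged from 2.75 to 8.40 CPM over all libraries. Its group medians were 6.49, 5.31, 4.85 and 5.37 CPM with 46 to 220 counts per library behind them, and its log2 fold change was -0.049 (SE 0.149, adjusted p = 0.948) and -0.018 without replicate 3 of FA diet + fluoxetine.

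*Hk1* (ENSMUSG00000037012, chromosome 10 from 62104621 to 62215687) and *Hk2* (ENSMUSG00000000628, chromosome 6 from 82699740 to 82751469) catalyse the first step of glucose use in the cell. *Hk1* had group medians of 16.1, 16.7, 14.7 and 15.2 CPM within a range from 10.6 to 23.3 CPM and the smallest fitted change for fluoxetine of the 9, a log2 fold change of 0.019 (SE 0.111, 95% interval -0.21 to 0.24), and 0.024 without FA diet + fluoxetine replicate 3. *Hk2* lay at 13.5, 18.2 and 22.4 CPM in breeder diet + saline, at 11.2, 21.0 and 24.5 CPM in breeder diet + fluoxetine and at 14.3, 16.8 and 22.9 CPM under FA diet + saline. In FA diet + fluoxetine it lay at 4.88, 13.9 and 20.6 CPM, the lowest median of the 4, with wide overlap. Its log2 fold change for fluoxetine was -0.13 (SE 0.135, adjusted p = 0.781), and -0.077 without replicate 3 of that group. The *Hk2* to *Hk1* ratio per exon length had medians of 1.19, 1.22, 1.13 and 0.929 in the 4 groups. *Hk2* exceeded *Hk1* in 7 of 8, 6 of 7, 5 of 8 and 2 of 8 libraries, and the ratio itself depends on the length used.

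The genes that make and move the nucleotide sugars showed the same overlap between groups. *Ugp2* (ENSMUSG00000001891, chromosome 11 from 21270384 to 21321276) had group medians of 36.8, 28.6, 39.7 and 30.9 CPM within a range from 16.6 to 61.5 CPM. Its log2 fold change for fluoxetine was -0.16 (SE 0.143, adjusted p = 0.747), and -0.12 without FA diet + fluoxetine replicate 3. Of the 9 genes, 5 share exon bases with a gene on the other strand. Exons of *Ugp2* share 950 bases with *Vps54* on the other strand, and those of *Pgm1* share 615 with *Itgb3bp* and those of *Hk1* 414 with *Hk1os*, and without the strand option of the counting such reads cannot be assigned. *Slc35a2* (ENSMUSG00000031156, X chromosome from 7750263 to 7760731) lay at 15.5, 21.9 and 29.8 CPM in breeder diet + saline and at 14.3, 20.7 and 29.6 CPM in breeder diet + fluoxetine. It lay at 17.5, 24.3 and 29.4 CPM in FA diet + saline, and at 2.90, 18.5 and 38.0 CPM in FA diet + fluoxetine. That last group held both the lowest and the highest value of all 31 libraries. The log2 fold change of *Slc35a2* was -0.15 (SE 0.197, adjusted p = 0.834), and -0.077 without its lowest library.

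*Galt* (ENSMUSG00000036073, chromosome 4 from 41755186 to 41760050), which exchanges galactose 1-phosphate for glucose 1-phosphate on the UDP-sugar, lay at 6.86, 8.46 and 12.8 CPM in breeder diet + saline and at 6.72, 9.52 and 14.8 CPM in breeder diet + fluoxetine. On the FA diet with saline it lay at 6.50, 9.62 and 12.5 CPM, and in FA diet + fluoxetine at 9.28, 11.7 and 21.4 CPM. Fluoxetine groups had the higher median in each diet while their ranges overlapped those of saline. The log2 fold change was 0.32 (SE 0.128, 95% interval 0.064 to 0.58), with an unadjusted p of 0.016 and an adjusted p of 0.418 in edgeR's quasi-likelihood test. It was 0.31 without FA diet + fluoxetine replicate 3 and 0.25 without replicate 5 of that group, the library with the highest level.

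*Pgm1* (ENSMUSG00000025791, chromosome 4 from 99786394 to 99844492), known in the mouse under the older name *Pgm2*, interconverts glucose 1-phosphate and glucose 6-phosphate and is abundant in muscle. It lay at 7.22, 13.4 and 21.3 CPM in breeder diet + saline and at 7.53, 11.7 and 34.8 CPM in breeder diet + fluoxetine. On the FA diet with saline it lay at 8.41, 13.7 and 37.3 CPM, and in FA diet + fluoxetine at 7.52, 10.8 and 24.5 CPM. The 6 highest of the 31 levels, 17.6 to 37.3 CPM, were those of the 6 libraries with muscle markers over 1500 CPM, and no other library passed 15.9 CPM. The summed level of the 6 muscle markers ran from 44.1 to 1750 CPM in breeder diet + saline, 0.887 to 5809 CPM in breeder diet + fluoxetine, 4.71 to 3624 CPM in FA diet + saline and 0.911 to 3316 CPM in FA diet + fluoxetine. Single muscle markers were at 0 in 13 values, 5 of them in breeder diet + fluoxetine and 8 in FA diet + fluoxetine. For *Pgm1*, fluoxetine gave a log2 fold change of -0.21 (SE 0.215, adjusted p = 0.788) and -0.19 (SE 0.128, adjusted p = 0.826) without the 6 libraries, so their removal narrowed the error and left the estimate in place. It was -0.19 (SE 0.230) without FA diet + fluoxetine replicate 3. Other single libraries moved the estimate more, to -0.41 without breeder diet + fluoxetine replicate 5 and to -0.065 without FA diet + saline replicate 4.

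The FA diet was compared with the breeder diet over both treatments. No member passed the FDR in edgeR's quasi-likelihood test, under which 0% of all genes tested did. At an unadjusted p of 0.05 or below, 0 of the 9 differed, and 5.08% of all genes did. Fitted values were above 0 for 4 members and below 0 for 5, with a median of -0.016 against 0.017 over all genes. *Hk2* had the largest fitted value, a log2 fold change of -0.27 (SE 0.135, 95% interval -0.54 to 0.0048, unadjusted p = 0.0539, adjusted p = 0.933). It was -0.21 without FA diet + fluoxetine replicate 3. *Slc2a8* followed with -0.20, *Galt* with 0.17, *B4galt1* with -0.15 and *Ugp2* with 0.14, with adjusted p from 0.943 to 0.968, and *Slc2a1*, *Slc35a2*, *Pgm1* and *Hk1* lay between -0.046 and 0.028. Without replicate 3, *B4galt1* stood at -0.073 and *Slc2a1* at 0.038. *Galt* stood at 0.092 without FA diet + fluoxetine replicate 5 and *Ugp2* at 0.088 without FA diet + saline replicate 4. Without the 6 muscle-rich libraries, *Ugp2* stood at 0.046, *Slc2a1* at -0.12 and *Slc35a2* at 0.10.

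The interaction asks whether fluoxetine acted differently on the FA diet than on the breeder diet. Again no member passed the FDR, as 0% of all genes did, and 0 of the 9 had an unadjusted p of 0.05 or below, where 3.84% of all genes did. Values were below 0 for 7 of the 9 members, with a median of -0.20 against 0.035 over all genes. *Pgm1* had the lowest, -0.51 (SE 0.429, adjusted p = 0.977 in edgeR's quasi-likelihood test), which became -0.098 without breeder diet + fluoxetine replicate 5 and 0.080 without the 6 libraries rich in muscle markers. *Hk2* at -0.42, *Ugp2* at -0.40 and *Slc2a1* at -0.39 followed, with SEs of 0.270, 0.285 and 0.363. Without FA diet + fluoxetine replicate 3 they stood at -0.30, -0.32 and -0.23. Without the 6 muscle-rich libraries they stood at -0.26, -0.28 and -0.40, and without these and replicate 3 at -0.11, -0.18 and -0.21. Under a replicate block *Hk2* stood at -0.68. The 95% interval of the *Slc2a1* interaction ran from -1.13 to 0.34, wider than that of either main effect.

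**Figure D2:**
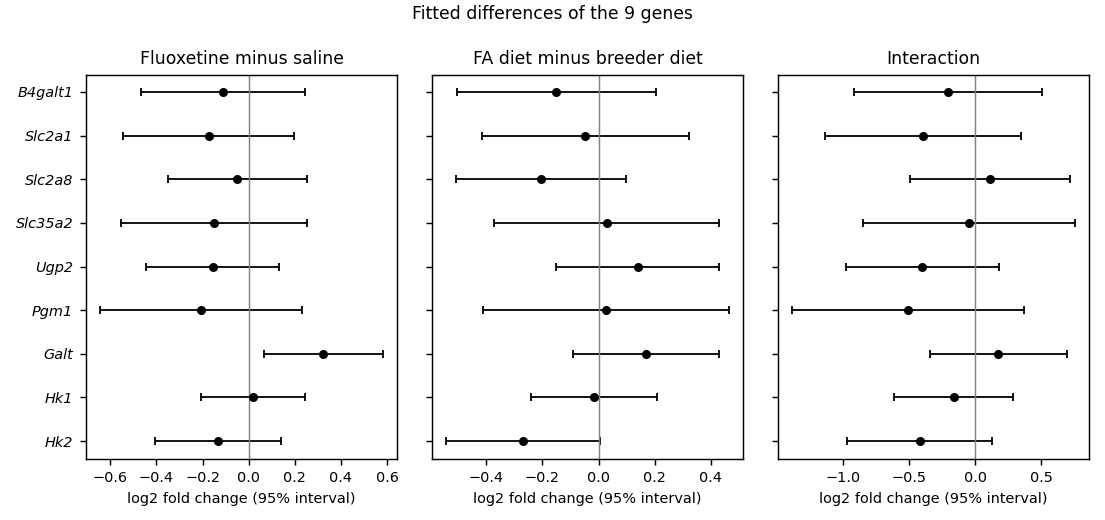
Fitted log2 fold changes of the 9 genes (points) with 95% intervals (bars) for fluoxetine, FA and their interaction, from all 31 libraries. Every interval crosses 0 except that of *Galt* for fluoxetine, 0.064 to 0.58, which does not pass adjustment over all genes.

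In the neighbouring steps of the pathway, 42 further genes were listed and 35 could be tested. For fluoxetine, 16 were higher and 19 lower, where 53.5% of all genes tested were higher, and 1 of the 35 passed the FDR. That gene, *Pgm5*, a phosphoglucomutase relative without known enzyme activity that is found at muscle cell junctions, had a log2 fold change of -0.62 (SE 0.118, adjusted p = 0.0404 in edgeR's quasi-likelihood test). It lay at 3.60 to 7.54 CPM in saline-treated and at 1.95 to 4.43 CPM in fluoxetine-treated dams, and those ranges overlap. The summed level of the 5 myoepithelial markers, none of them at 0, ran from 339 to 597 CPM (median 409) in saline-treated and from 209 to 505 CPM (median 304) in fluoxetine-treated dams, and its part in the *Pgm5* result was not tested. The direction of *Pgm5* held but the call was lost without the 6 muscle-rich libraries (-0.66, adjusted p = 0.356), without these and FA diet + fluoxetine replicate 3 (-0.69, adjusted p = 0.374), without a filter on low counts (-0.62, adjusted p = 0.166) and with a replicate block (-0.52, adjusted p = 0.482). The call was also lost without breeder diet + fluoxetine replicate 8 alone, a fit in which no gene passed the FDR for fluoxetine. *B4galt6*, which galactosylates glycolipids, came next after *Pgm5* with 0.62 (SE 0.199, adjusted p = 0.342). Its highest level, 4.68 CPM, was in FA diet + fluoxetine replicate 3.

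By step of the pathway, 2 of 6 other hexose carriers, 2 of 6 other hexose phosphate enzymes, 1 of 4 other Leloir enzymes and 4 of 6 other galactosyltransferases had values above 0 for fluoxetine. So did 2 of 3 other genes of UDP-sugar handling, 4 of 8 other users of glucose 6-phosphate and *Hk3*, the 1 other hexokinase tested. For FA, 23 of the 35 were higher and 12 lower, with 0 past the FDR, and 53.9% of all genes tested were higher. *B4galt4*, with a log2 fold change of 0.35 and an unadjusted p of 0.0356, and *Pgm5*, with 0.24 and 0.0482, had the smallest p, and both had an adjusted p of 0.933. For the interaction, 8 were above and 27 below 0, with 0 past the FDR, and 54.0% of all genes tested were above 0. These counts are from all 31 libraries. FA diet + saline held the most muscle-rich libraries, and the part of muscle RNA in the counts was not tested. *Pfkp*, a phosphofructokinase of glycolysis, had 0.65 and *B4galt3* 0.63, each with an adjusted p of 0.977. *Pfkp* stood at 0.23 and *B4galt3* at 0.42 without FA diet + fluoxetine replicate 3, where both had their highest level of all libraries.

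By TMM-normalised CPM, that library had the lowest level of 5 members. Its TMM factor was 3.04, against 0.716 to 1.57 in the other 30 libraries, and a larger factor gives lower CPM. The folds below and this count of 5 therefore depend on that scaling. *B4galt1* was at 103 CPM, 7.84-fold below the median of the other 30 libraries, whose lowest was 570 CPM. *Slc2a1* was at 4.81 CPM, 12.7-fold below it, and *Slc35a2* at 2.90 CPM, 7.51-fold below it. The enzyme, the cell-surface carrier and the Golgi carrier were thus lower by more than *Lalba*, which was 5.11-fold below the median at 708 CPM. *Hk2* was 3.55-fold and *Ugp2* 2.09-fold below. The other 4 members were inside the range of the other libraries: *Slc2a8* at 3.09 CPM, *Pgm1* at 9.21 CPM, *Hk1* at 13.7 CPM and *Galt* at 13.1 CPM, the last above 26 of the other 30. It is 1 library, so these folds have no replicate, and the part of the fibroblast, leukocyte and adipocyte RNA in them was not tested.

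**Figure D3:**
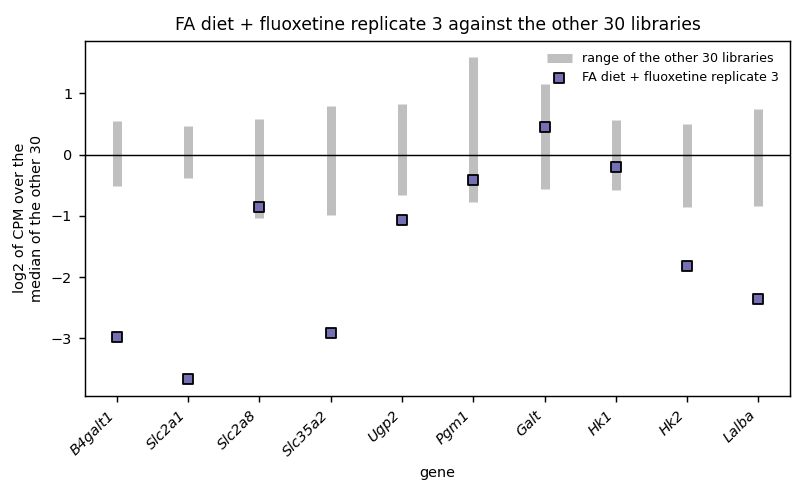
Level of the 9 genes and *Lalba* in FA diet + fluoxetine replicate 3 (squares) as log2 of its CPM over the median of the other 30 libraries, with grey bars for the range of those 30. *Slc2a1*, *B4galt1* and *Slc35a2* lie far below their bars, and *Galt*, *Hk1*, *Pgm1* and *Slc2a8* inside them.

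Members were correlated pairwise over the 31 libraries on the log2 CPM scale, 36 pairs in all, with permutation tests of 100000 resamples and Benjamini-Hochberg adjustment over the pairs. The libraries share composition effects, so the values describe these libraries. Of the 36 pairs, 9 passed an adjusted p of 0.05 by both Pearson's r and Spearman's rho. Of these, 5 did so also after the 2 libraries farthest from the median of 1 gene of the pair were left out. *B4galt1* and *Slc2a1* had the highest r, 0.92 (adjusted permutation p = 0.00108), with rho = 0.56 (adjusted permutation p = 0.00774), but r was 0.48 (adjusted permutation p = 0.0412) without the 2 farthest libraries, one of them FA diet + fluoxetine replicate 3. *B4galt1* with *Ugp2* had r = 0.61 and rho = 0.51, and *Slc2a1* with *Ugp2* r = 0.56 and rho = 0.51. Both kept r at 0.52 and 0.49 without the 2 farthest. *Ugp2* with *Pgm1* had r = 0.58 and rho = 0.56, and r = 0.48 without the 2 farthest. Those 2 were FA diet + fluoxetine replicate 3 and FA diet + saline replicate 4, so the other muscle-rich libraries stayed in. The part of muscle RNA in this pair was not tested. *B4galt1*, *Slc2a1* and *Ugp2*, at uptake, UDP-glucose and the last step, varied together between dams.

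*Galt* varied the other way. Its rho was below 0 with all 8 other members, from -0.63 with *B4galt1* and *Hk2* to -0.21 with *Slc2a8*. The pair with *Slc35a2* passed every step, at r = -0.51 (adjusted permutation p = 0.0175) and rho = -0.59 (adjusted permutation p = 0.00696), and at r = -0.48 (adjusted permutation p = 0.0412) without the 2 farthest libraries. With *B4galt1*, rho passed (adjusted permutation p = 0.00468) and r of -0.42 did not (adjusted permutation p = 0.0555), although r was -0.59 without the 2 farthest. Over deviations from the group means, the pair of *Galt* and *Slc35a2* had r = -0.45.

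**Figure D4:**
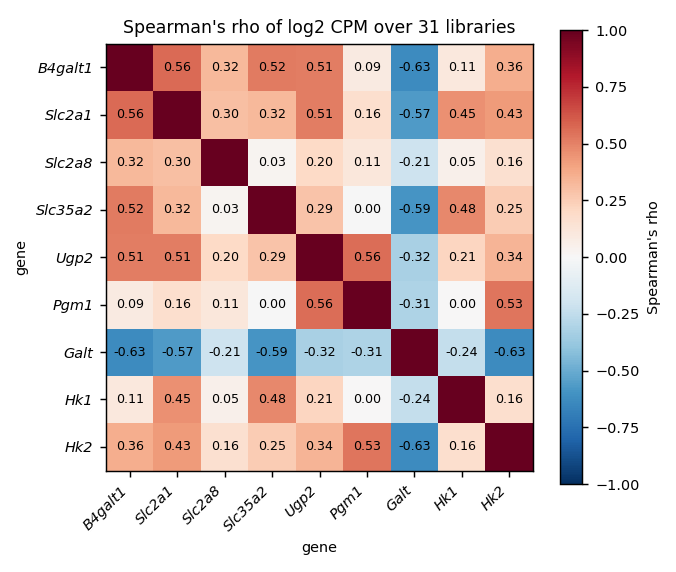
Spearman's rho of log2 CPM between each pair of the 9 genes over 31 libraries, from blue (-1) to red (1). The *Galt* row and column are blue throughout, down to -0.63, while *B4galt1*, *Slc2a1* and *Ugp2* form a red group at 0.51 to 0.56.

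Each member was also set against the skeletal muscle markers and against *Lalba*, 18 relations over the 31 libraries adjusted together, and 2 passed by r, by rho and without the 2 farthest libraries. Distance was judged on the muscle marker sum or on *Lalba*, not on the member. *Pgm1* rose with the log2 sum of the muscle markers, at r = 0.68 (adjusted permutation p = 0.00027) and rho = 0.69 (adjusted permutation p = 0.00036), and at r = 0.68 (adjusted permutation p = 0.00063) without the 2 farthest. Those 2 were breeder diet + fluoxetine replicate 6 and FA diet + fluoxetine replicate 2, with muscle marker sums of 0.887 and 0.911 CPM. None of the muscle-rich libraries was left out there. *Slc35a2* rose with *Lalba*, at r = 0.83 (adjusted permutation p = 0.00018) and rho = 0.63 (adjusted permutation p = 0.00126), and at r = 0.76 (adjusted permutation p = 0.00018) without the 2 farthest. *B4galt1*, the partner of *Lalba* in the enzyme, had r = 0.77 with it but rho = 0.39 and r = 0.29 without the 2 farthest libraries, so that relation rested on those libraries. *Slc2a1* with *Lalba* went likewise from r = 0.75 to 0.19.

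**Figure D5:**
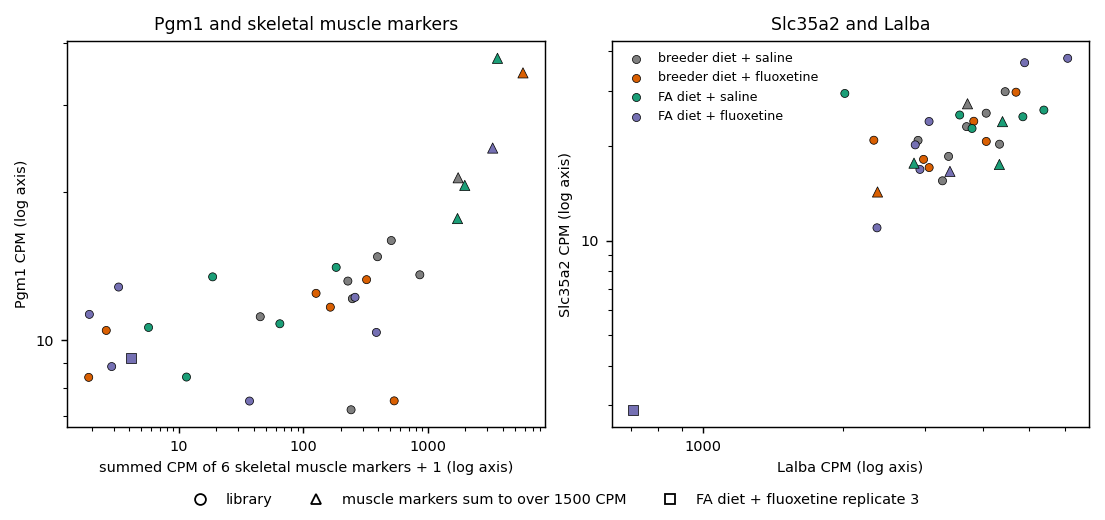
Left, *Pgm1* CPM against the summed CPM of 6 muscle markers + 1, and right, *Slc35a2* CPM against *Lalba* CPM, 1 point per library on log axes, coloured by group. *Pgm1* is highest in the 6 libraries with the most muscle RNA (triangles), and the square, FA diet + fluoxetine replicate 3, is the low corner of the *Slc35a2* plot.

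The genes most like each member across the 31 libraries, by Spearman's rho of log2 CPM over all genes tested, differed from member to member. *B4galt1* was nearest to *Nr3c1*, the glucocorticoid receptor (rho = 0.87), *Cldn8*, a tight junction claudin (0.86), and *Clcn3*, a chloride and proton exchanger (0.85). *Slc2a1* was nearest to *Homer2* (0.78), *Mtdh* (0.74) and *Pacc1* (0.72), and *Slc2a8* to the protease *Furin* (0.72), *Sptb* (0.67) and the pseudogene *Kansl2-ps* (0.66). *Slc35a2* was nearest to *Sqle*, squalene epoxidase of sterol synthesis (0.86), *Morf4l2* (0.86) and *Arf4*, a small GTPase of Golgi traffic (0.85). Likeness was as close for *Galt*, whose nearest genes were *Ppcdc* of coenzyme A synthesis, *Ptpn18* and *Cdk5* (0.87, 0.87 and 0.86). *Ugp2* was nearest to *Hibadh* (0.78), *Slc31a1*, a copper carrier (0.78), and *Itgb5* (0.76). *Hk1* was nearest to *Insig1* (0.77), *Pgd* (0.75) and *Scd2* (0.72), genes of sterol control, the pentose phosphate pathway and fatty acid desaturation. *Pgm1* was nearest to *Lmod2*, *Asb5* and *Scn4a* (0.84, 0.82 and 0.80), 3 muscle genes with medians of 0.308, 0.564 and 0.343 CPM. *Hk2* had the weakest leading match, with the immunoglobulin segments *Ighv1-18* (0.69) and *Igkv6-32* (0.66) and the scaffold gene *Nherf1* (0.66). The segments had low medians of 0.311 and 0.586 CPM.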

How the data were processed

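The authors trimmed paired reads with Trim Galore 0.4.4, checked them with FastQC 0.11.7, aligned them to GRCm39 by HISAT2 and assigned reads to genes by htseq-count (intersection-nonempty), and the deposited values are raw whole-number counts. Annotation release and strand option were not given in the sources used here. Symbols came from GENCODE on GRCm39, which lacks 667 of the 55379 identifiers.

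In edgeR 4.0.16 (R 4.3.3), filterByExpr by group kept 14362 genes. Libraries were TMM-normalised, a model of 4 groups was fitted with robust dispersions (common dispersion 0.169), and fluoxetine, FA and the interaction were tested as contrasts by quasi-likelihood, with Benjamini-Hochberg adjustment over all genes at an FDR of 10%. The scripts were tested on simulated data. Log2 CPM used a prior count of 2. Libraries of a group differed beyond counting error (chi-square per degree of freedom at least 14.4), so none repeated another. This check cannot show that each came from its own dam, which was taken from the library titles and the paper's design. The paper's methods give 8 and 7 dams for the fluoxetine groups where the labels give 7 and 8, and the labels were followed.

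Alternatives were the likelihood ratio test, DESeq2 1.42.0, RLE normalisation, no filter, the 20 most abundant genes left out, a replicate block and each library left out. Leaving out the 6 libraries over 1500 CPM of muscle markers, and these with FA diet + fluoxetine replicate 3, and the canonical length were added after seeing the data. The members and lists were chosen with earlier results of these data known. Named are the members, *Lalba*, listed pathway genes past the FDR or with the 2 smallest p per contrast, and the 3 genes most like each member.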

Additional observations from a re-analysis of the deposited data

Results flagged for a closer look

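In 6 of 36 sets (9 genes in 4 groups), the highest or lowest library lay farther from its neighbour than Dixon's 95% limit allows. Chance flags about 1 in 20 such sets where they are independent and their values normally distributed. These sets share the same 31 libraries and were tested as CPM without a log, so that rate is only a rough guide. *Slc2a1* was at 4.81 CPM in FA diet + fluoxetine replicate 3, where the others of the group lay between 56.8 and 73.6 CPM. *Pgm1* was flagged as high in 3 groups. It was at 34.8 CPM in breeder diet + fluoxetine replicate 5 (others 7.53 to 13.3 CPM), at 37.3 CPM in FA diet + saline replicate 4 (others 8.41 to 20.6 CPM) and at 24.5 CPM in FA diet + fluoxetine replicate 10 (others 7.52 to 12.8 CPM). In these 3 libraries, the 6 skeletal muscle markers summed to 5809, 3624 and 3316 CPM, the highest sums of their groups. *Galt* was at 21.4 CPM in FA diet + fluoxetine replicate 5 (others 9.28 to 14.1 CPM), which also had the lowest *Slc35a2* level of its group after replicate 3, 10.99 CPM. *Hk1* was at 22.6 CPM in FA diet + fluoxetine replicate 4, where the others lay between 13.6 and 17.3 CPM.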

How the results depend on the processing

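No member passed the FDR under any of the 8 other settings or the 31 fits without 1 library, and the lowest adjusted p among them was 0.262 (*Galt*, fluoxetine). The count of all genes past it for fluoxetine was 3, 70 with DESeq2, 45 with the likelihood ratio test, 1 without a filter and 0 without the muscle-rich libraries, with FA diet + fluoxetine replicate 3 left out as well, or with a replicate block. It ranged from 0 (without breeder diet + fluoxetine replicate 8) to 19 (without breeder diet + saline replicate 4). Same-numbered dams of different groups correlated at a median of 0.0791, with 12 of 28 pairs over 0.1. Different-numbered dams of different groups correlated at a median of -0.00699, with 74 of 332 pairs over 0.1. The numbers were not used as a block in the main fit, and a replicate block was run as an alternative. Under the replicate block 4 members were higher with fluoxetine in place of 2, and signs turned for *Slc2a8* (0.040) and *Pgm1* (0.026) for fluoxetine, for *Slc2a1* (0.018), *Pgm1* (-0.27), *Hk1* (0.019) and *Lalba* (-0.00441) for FA, and for *Slc2a8* (-0.060) in the interaction. Without the muscle-rich libraries, and without these and replicate 3, values became 0.070 and 0.11 for *Slc2a8* and -0.033 and -0.025 for *Hk1* under fluoxetine, -0.090 and -0.087 for *Pgm1* and 0.046 and 0.054 for *Hk1* under FA, and 0.080 and 0.11 for *Pgm1* in the interaction. *Lalba* became -0.011 for FA without the first set and 0.00019 in the interaction without both. With 1 library left out, members higher numbered 1 to 2 for fluoxetine and 2 to 5 for FA, and 27 of 837 member values turned sign. These ranges cross 0: *Hk1* for fluoxetine, -0.025 to 0.064. For FA, *Slc2a1* ran from -0.085 to 0.038, *Slc35a2* from -0.063 to 0.11, *Pgm1* from -0.11 to 0.23, *Hk1* from -0.059 to 0.029 and *Lalba* from -0.069 to 0.094. In the interaction, *Slc35a2* ran from -0.23 to 0.11 and *Lalba* from -0.27 to 0.052. *Galt* in the interaction was 0.011 without FA diet + fluoxetine replicate 5. The causes were not tested. *Slc2a8* had the fewest counts of the members, from 46 per library, and so the largest relative counting error.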
